A study of Mus musculus with 6 samples.

Results

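Bysl, LTO1 and Bola2 are 3 genes of ribosome assembly and iron-sulfur protein maturation that were picked by name from the 139 genes of the deposited table, which is the authors' list from their comparison of rapamycin-treated with vehicle-treated dendritic cells. Being in that table is therefore how the genes were chosen and not a result. The table came from RNASeq of bone marrow-derived dendritic cells (BMDCs), which are dendritic cells grown in culture from mouse bone marrow. Cells of C57BL/6 mice of 8 to 10 weeks were kept for 8 days with GMCSF at 6 ng/mL, given 3 times. Veh-DC (labelled Veh/Veh, 3 libraries) received vehicle, and Rapa-M-DC (labelled Rapa/Veh, 3 libraries) received rapamycin at 10 ng/mL in 3 treatments. Rapamycin inhibits the kinase mTOR. The labels give 80 to 90% CD11c+ cells, so each culture held other cells too, and in such bulk RNA a change in the share of a cell type cannot be told apart from a change in RNA per cell. The labels and the supplementary methods of the study name arms without LPS, whereas its main text names LPS-treated cells for the RNASeq, and the LPS status of the libraries is not settled here.

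The table gives each gene 1 base mean, the authors' mean over all 6 libraries of the counts divided by the size factor of each library. It therefore holds no level per library or per group for Bysl, LTO1 or Bola2, and no spread between replicates. The depth of the libraries is unknown. The other measured columns of the table are the authors' own comparison and were not used, so no direction, size or test of a difference between Rapa-M-DC and Veh-DC is given for these genes. Whether they were higher or lower in Rapa-M-DC was not examined here. What follows describes the level of the 3 genes over both groups together, the strand on which their neighbours lie, and their sequence.

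Ribosomes are assembled in the nucleolus and cytoplasm from ribosomal RNA and proteins, with the help of assembly factors that leave before the subunit is used. Bysl encodes bystin, an assembly factor of the small ribosomal subunit. Iron-sulfur clusters are cofactors whose making starts in mitochondria. For proteins of the cytosol and nucleus, a separate assembly machinery outside mitochondria is needed. LTO1 encodes an adaptor that helps bring the ribosome recycling factor Abce1 to that machinery, and Bola2 encodes a small cytosolic protein that binds iron-sulfur clusters together with the glutaredoxin Glrx3. The mTORC1 complex, which rapamycin inhibits, is known to promote ribosome production and protein synthesis.

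Bysl and LTO1 share exon sequence with cyclin genes on the other strand, Ccnd3 and Ccnd1, and the strand on which the reads were counted is not given in the sources used here. For part of each gene the same bases are thus exon in either direction, which the following windows show. Each is the middle of the longest shared block, read from a GENCODE M21 transcript of each gene in its own direction, in GRCm38 coordinates. The window of Bysl and Ccnd3 is chr17:47599496-47599525, on the minus strand for Bysl.
Bysl: atgaggtggaggggtgaggagaggaaggcg
Ccnd3: cgccttcctctcctcacccctccacctcat
The window of LTO1 and Ccnd1 is chr7:144930324-144930353, on the plus strand for LTO1.
LTO1: aacaagacggaacactagaacctaacagat
Ccnd1: atctgttaggttctagtgttccgtcttgtt
Bola2 has a similar stretch with Slx1b at chr7:126695589-126695618, on the plus strand for Bola2.
Bola2: tgctgcatggtccatccggactttctgggt
Slx1b: acccagaaagtccggatggaccatgcagca
In each pair the second sequence is the reverse complement of the first. The position of a read from there, without its strand, therefore does not tell the genes apart.

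The 3 genes were among the 8 rows with the highest base mean. Bysl (ENSMUSG00000023988) had a base mean of 915 normalized counts by the authors' calculation and ranked 3 of 139. Bola2 (ENSMUSG00000047721) had 454 normalized counts and ranked 7, and LTO1 (ENSMUSG00000031072) had 406 and ranked 8. Over all 139 rows the base mean ran from 7.08 to 1742 with a median of 29.2. The 3 genes thus lay well above the middle of the list, and among the 99 protein-coding rows their ranks were the same. These base means are not divided by gene length. They also carry no error, so it is not known whether the order of neighbouring rows would hold in other libraries.

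**Figure D1:**
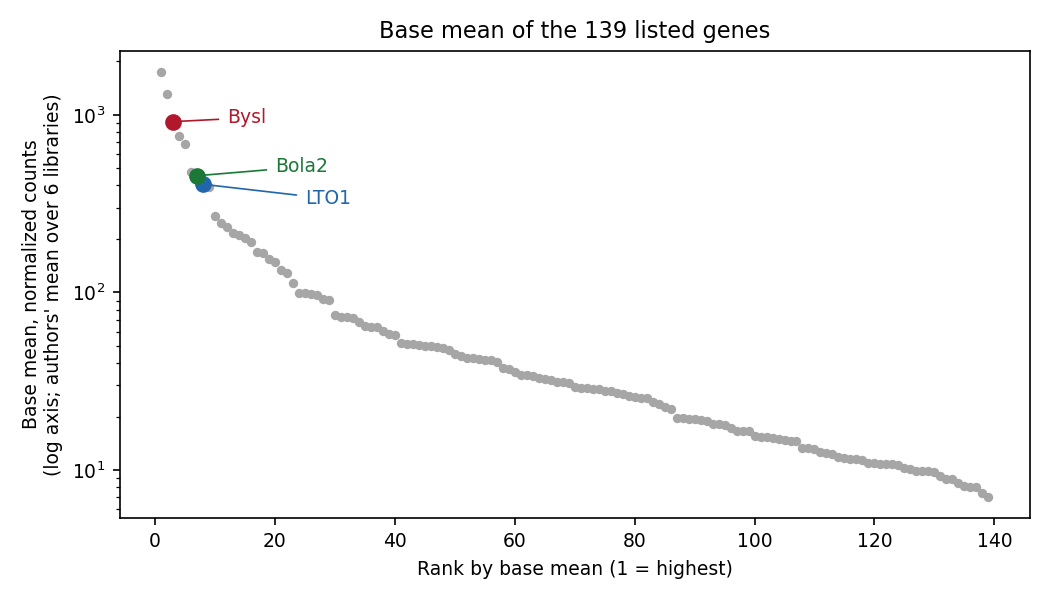
Base mean of the 139 listed genes in normalized counts (log axis, the authors' mean over 6 libraries) against rank, 1 point per gene, with no error available. Bysl (915, rank 3), Bola2 (454, rank 7) and LTO1 (406, rank 8) lie at the high end.

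In base mean, Bysl stood between Mettl23, a methyltransferase gene with 1303 normalized counts, and Tulp4 with 757. Bola2 and LTO1 were next to each other. Smpd2, which encodes a sphingomyelinase, lay just above Bola2 with 474 normalized counts, and Gm26649, a long non-coding RNA gene, lay just below LTO1 with 394. A likeness of pattern over samples could not be computed from 1 value per gene.

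Per kilobase of exon, counting every annotated exon base of a gene once, Bysl had 237 normalized counts per kb and ranked 5 of the 139 rows. Bola2 had 103 normalized counts per kb and ranked 17. LTO1 had 57.5 normalized counts per kb and ranked 24, the lowest of the 3. Transcripts that keep an intron count as exon here, such as Bola2-205 (3796 bp) and LTO1-207 (4022 bp). They lengthen Bola2 and LTO1 but not Bysl, whose only transcript is protein-coding. The order of Bysl and Bola2 depended on the length used, because the exons of Bola2 add up to 4398 bp, of which 259 bp are coding, whereas Bysl has 3854 bp of exons with 1308 bp coding. Divided by the longest protein-coding transcript, Bola2 had 358 normalized counts per kb, Bysl 237 and LTO1 182. Divided by coding length, the values per kb were 1752 for Bola2, 699 for Bysl and 438 for LTO1. LTO1 was the lowest of the 3 genes under each of the 4 lengths tried. Coding length here merges the coding bases of all transcripts, which for LTO1 gives 928 bp. No single LTO1 transcript has more than 483 coding bp (LTO1-203), and that shorter length was not among those tried. With it in place of 928 bp, LTO1 would lie above Bysl and still below Bola2. Its last place by coding length thus rests on merging the transcripts.

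**Figure D2:**
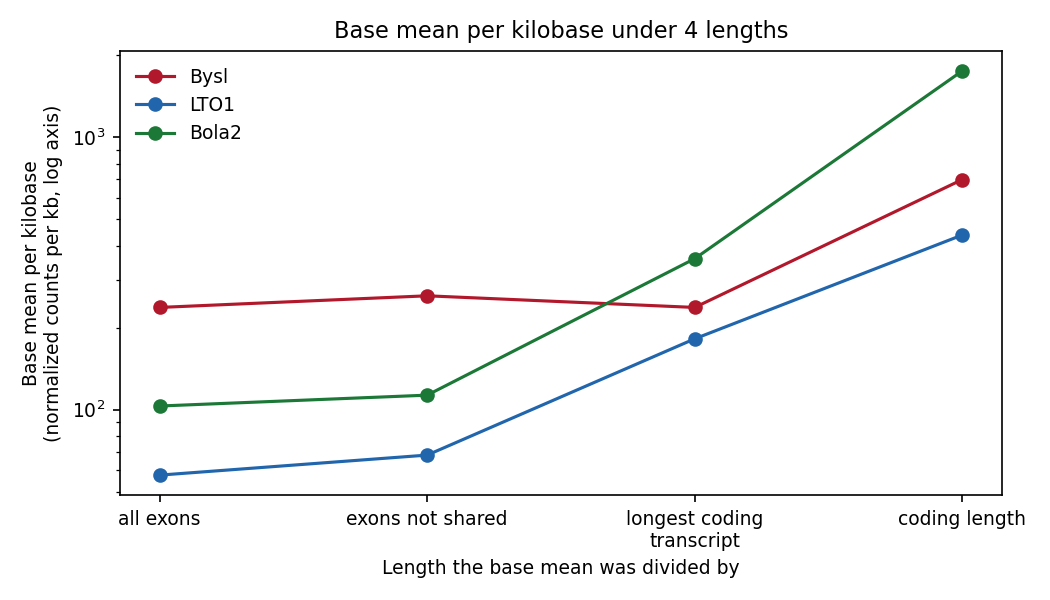
Base mean per kilobase (normalized counts per kb, log axis) of the 3 genes when the base mean is divided by all exons, by exons not shared with the other strand, by the longest coding transcript and by coding length. Lines join the values of 1 gene. The base mean is the same under each length and was not limited to exons that are not shared. Bysl is highest with the first 2 lengths (237 and 262), Bola2 with the other 2 (358 and 1752).

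Bysl lies on the minus strand of chromosome 17 (47599331 to 47611492) and has 1 annotated transcript in 7 exons. Its last 361 bp, positions 47599331 to 47599691, lie opposite the end of Ccnd3 on the plus strand (47505051 to 47599691), which encodes a D-type cyclin, one of the regulators of entry into the cell cycle. The genes meet at their ends, and the shared stretch holds 0 coding bases of either, so it is untranslated sequence after both reading frames. It makes up 9.37% of the Bysl exons and 4.11% of the Ccnd3 exons. The other 3493 bp of Bysl exons, with all of its coding sequence, lie opposite no annotated exon.

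LTO1 is on the plus strand of chromosome 7 (144915100 to 144931701) and has 8 annotated transcripts, 5 of them protein-coding. Its exons add up to 7061 bp, of which 1100 bp (15.6%) lie opposite exons of Ccnd1, another D-type cyclin gene on the minus strand (144929931 to 144939925). These 1100 bp are 23.4% of the Ccnd1 exons and include 0 of its coding bases. The shared sequence belongs to 2 of the 8 LTO1 transcripts. LTO1-204 shares 818 bp, all after its reading frame, and LTO1-208 shares 282 bp, of which 105 bp are coding. Between the end of LTO1-201 and Ccnd1 lie 8796 bp, and this transcript shares 0 bp with it. How the counts of LTO1 divide over these transcripts cannot be read from 1 value per gene.

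Bola2 is on the plus strand of chromosome 7 (126695401 to 126699798), with 5 annotated transcripts. Its 386 bp of shared exon sequence (8.78%) lie opposite a pair of genes. At its start, 360 bp lie opposite the first exon of Slx1b, which encodes the catalytic subunit of a DNA endonuclease, and 179 of these are coding bases of Slx1b. At its end, 26 bp lie opposite the end of Coro1a, a coronin of the leukocyte actin skeleton, through the single transcript Bola2-205. Bola2-202, one of its 2 protein-coding transcripts, shares 0 bp with either gene. In the RefSeq annotation of GRCm38, Bola2 is shorter (126696000 to 126696693), ends 3080 bp before Coro1a and starts 216 bp from Slx1b, so the overlap of Bola2 rests on GENCODE transcripts that the RefSeq gene does not span.

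**Figure D3:**
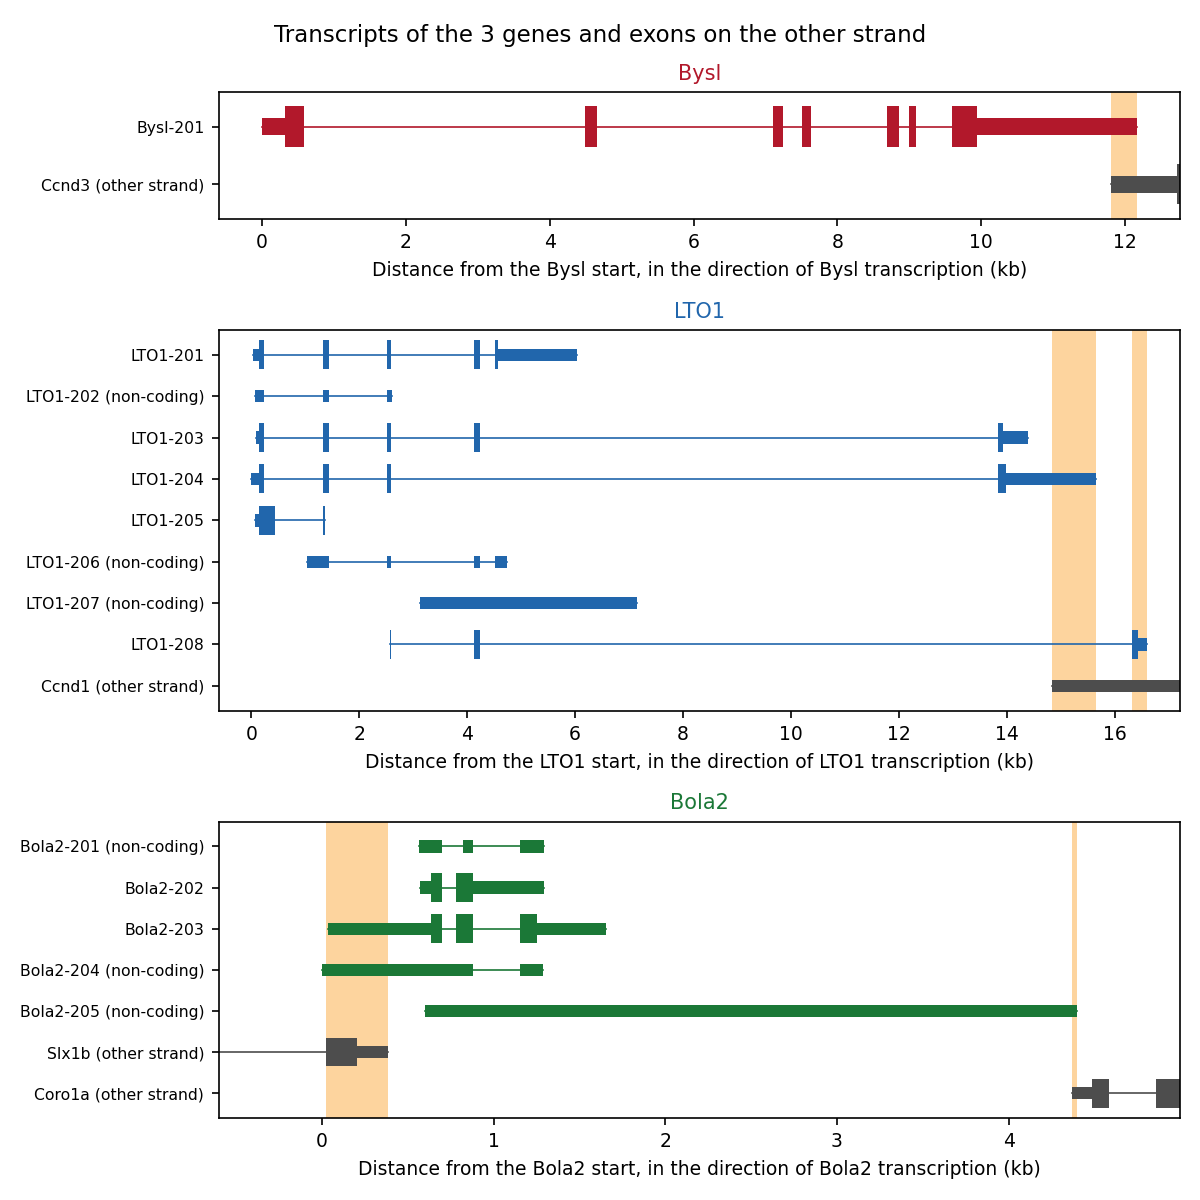
Annotated GENCODE M21 transcripts of Bysl, LTO1 and Bola2 (coloured) and the joined exons of genes on the other strand (grey), by distance in kb from the start of each gene in its own direction. Thick boxes are coding, thin boxes untranslated or non-coding exons, lines introns, and orange bands the shared exon bases (361 bp for Bysl, 1100 bp for LTO1, 386 bp for Bola2), which lie at the ends of Bysl and LTO1 and mostly at the start of Bola2.

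Exons of 79 of the 139 rows (56.8%) share at least 1 bp with an exon on the other strand, against 16.7% of the 55536 annotated genes. Among protein-coding rows, to which Bysl, LTO1 and Bola2 belong, it was 48 of 99 (48.5%), against 24.0% of the 22028 annotated protein-coding genes, whether expressed or not. With protein-coding genes only on both strands it was 34 of 99 (34.3%), against 12.7%. The shared part was a median of 3.84% of the exon bases over all 139 rows and of 16.4% over the 79 rows with an overlap. By that share, LTO1 ranked 43 of 139, Bysl 51 and Bola2 53, so all 3 genes were above the median of all rows and below that of the rows with an overlap. The highest base mean of a row without an overlap was 129 normalized counts, that of Lyz2, the lysozyme gene, which was picked out after the values were seen. The part of the other strand in the base means of the 3 genes was not tested. Ccnd3, Ccnd1, Slx1b and Coro1a are not in the table.

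**Figure D4:**
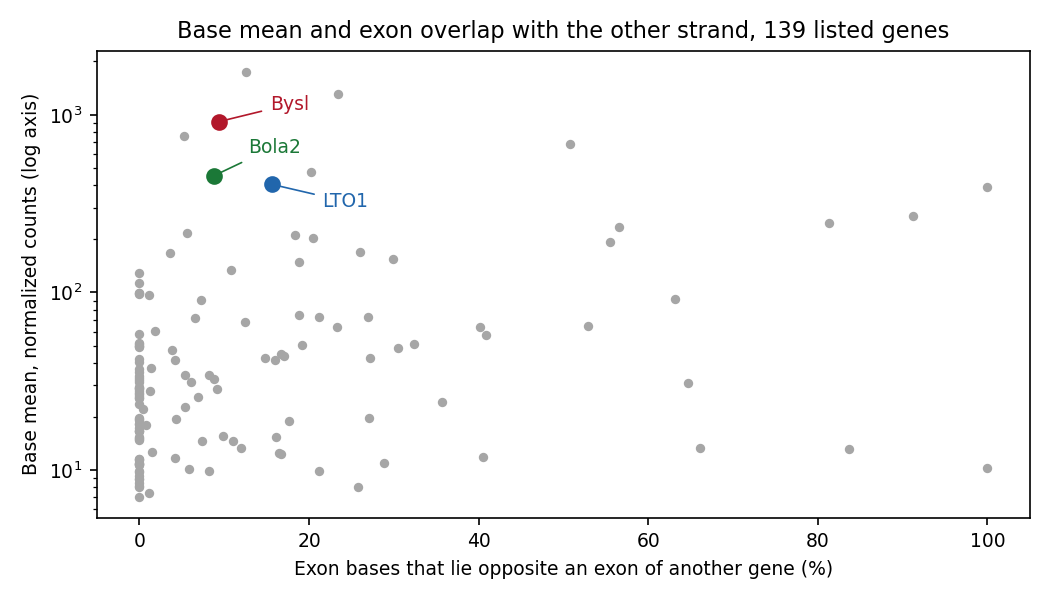
Base mean in normalized counts (log axis) of the 139 listed genes against the percentage of their exon bases that lie opposite an exon of another gene, 1 point per gene. Bysl (9.37%), Bola2 (8.78%) and LTO1 (15.6%) have a high base mean. Their shared part lies above the median of all rows (3.84%) and below that of the rows with an overlap (16.4%). The genes at 0% lie at or below 129 normalized counts.

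Apart from the other strand, little of the 3 genes recurs elsewhere. Of the 3824 different stretches of 31 bases in Bysl, 51 (1.33%) occur in the same direction in a transcript of another gene, with at most 27 in any single gene (Gm17796). For Bola2 it was 78 of 4434 (1.76%), with at most 35 in a single gene, and for LTO1 0 of 7105. These few stretches were spread over 442 other genes for Bysl and 1421 for Bola2. Among the annotated transcripts, none was thus a near-identical copy of Bysl, LTO1 or Bola2 on the same strand. In the opposite direction the gene with the most stretches was Ccnd3 for Bysl (8.66%), Ccnd1 for LTO1 (14.7%) and Slx1b for Bola2 (7.56%).

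Bysl and Bola2 also have a gene that starts close by on the other strand, which the choice of the genes did not use. Bysl starts 90 bp from Med20, a subunit gene of the Mediator complex of transcription, which runs the other way. The start of Bola2 in GENCODE is 383 bp from that of Slx1b. For LTO1 the nearest start on the other strand is that of Gm39119, 5015 bp away. A start on the other strand within 500 bp was found for 17 of the 139 rows, for 12 of the 99 protein-coding rows (12.1%) and for 14.3% of the 22028 annotated protein-coding genes. Neither Med20 nor Slx1b is in the table. The bases between the starts of Bysl and Med20 (GRCm38 chr17:47611493-47611581, RefSeq promoter table, strand of Bysl) are shown because both genes are transcribed away from them.
Bysl and Med20: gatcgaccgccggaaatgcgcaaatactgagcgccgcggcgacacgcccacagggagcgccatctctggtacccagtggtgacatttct
This stretch is 89 bp long, holds 10 CG pairs and is 61.8% G and C.

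All 3 genes matched the RefSeq promoter table of GRCm38.p6. It holds 32851 windows of the 250 bases before and the 50 from a gene's start. For Bola2 that start is the RefSeq one (126696000), not the GENCODE start (126695401) used above. Its window therefore lies inside the GENCODE gene and holds the GENCODE start of Slx1b (126695784). Of the 250 bases before the start, 58.4% were G or C in Bysl, 57.2% in LTO1 and 65.6% in Bola2, more than in 67.8%, 64.7% and 83.8% of all windows. Searched on both strands were the E-box CACGTG, the GC box GGGCGG, the CCAAT box CCAAT, the ETS core CCGGAAG and the TATA box TATAAA, and no match overlapped another. The GC box was found in all 3 genes, with 3 matches each in LTO1 and Bola2 and 1 in Bysl. It was the one motif that the 3 windows shared, and 35.7% of all windows hold it. The match nearest the start begins 39 bases before it in LTO1, 38 bases before it in Bola2 and 20 bases after it in Bysl, with the GC box in capitals on either strand.
Bysl GC box: atcgactcggctCCGCCCccaaggcgtcca
LTO1 GC box: ctcgggctagccCCGCCCatgtagcatcta
Bola2 GC box: tggctgcagtgaGGGCGGaaagcgaggtgg
These windows are chr17:47611455-47611484 (minus strand), chr7:144915049-144915078 (plus strand) and chr7:126695950-126695979 (plus strand). Bola2 also held 1 match of the CCAAT box, which 37.4% of the windows hold. The E-box, the ETS core and the TATA box had 0 matches in the 3 windows, against 7.15%, 8.86% and 13.6% of all windows. These are matches of letters and say nothing of a bound factor.

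Other genes of the processes that Bysl, LTO1 and Bola2 belong to were looked up in the table, which holds 0.449% of the annotated protein-coding genes. Of 68 other ribosome assembly genes that were looked up, 42 of the small subunit and 26 of the large subunit or rRNA synthesis, 0 were listed. The first set holds the assembly factors Ltv1, Tsr1, Nob1 and Pno1, which act with bystin on the small subunit. Of 29 other iron-sulfur assembly genes, 12 cytosolic and 17 mitochondrial, 0 were listed, including Ciao1, Mms19, Abce1 and Glrx3. The same was true of 10 genes of mTORC1 signalling and of the 3 D-type cyclins. All 110 symbols were found in the annotation. With so small a share of all genes listed, counts of 0 in lists of this size are near the background and are no result about these processes. The table holds listed genes only, so a gene outside it was either not past the authors' threshold or not tested, and its level and any change are unknown here. The lists are not complete. Read through by name, the table also holds Nhp2, which encodes a protein of the particles that modify ribosomal RNA, with a base mean of 47.6 normalized counts (rank 49), and Malsu1, a factor of the mitochondrial ribosome, with 11.8 (rank 114). Both lie below Bysl, LTO1 and Bola2 in base mean, and both also share exon bases with a gene on the other strand, 44 bp in Nhp2 and 1529 bp in Malsu1. Of 9 dendritic cell markers, 1 was listed (Irf8, base mean 29.1), and of 10 markers of other myeloid and lymphoid cells 0 were, so the cell type of the cultures could not be checked from the table. Xcr1, a receptor gene of one dendritic cell subset that was on neither list, had a base mean of 26.0.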

How the data were processed

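Per the study's methods, the authors cut 5 bases from the start of each read and quality-filtered the reads with fastx_toolkit. Alignment was by bowtie2 (build given as mm38, taken here to be GRCm38), counting by htseq-count and the comparison by DESeq2, all run by the authors. The supplementary methods name a NEBNext Ultra II "Dimensional" library kit, taken here to be the directional kit, whose reads keep their strand. Versions, annotation and counting strand are not given in the sources used here. The base mean, as deposited, is a signal: the authors' average of size-factor-normalized counts over all 6 libraries. The 5 other measured columns hold the authors' fold change, its standard error, the test statistic, the p-value and the adjusted p-value. They were neither used nor printed.

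All 139 identifiers and symbols were found in GENCODE M21 on GRCm38. Exons of all transcripts of a gene were merged and intersected with merged exons of genes on the other strand, with a minimum of 1 bp. Base means were divided by these lengths. The overlap calculation was tested on simulated data. No test was run, since 1 pooled value per gene allows none, and the test on counts of each library that the design foresaw could not be run. The genes and lists were chosen with earlier results of these data known. Genes named are the 3 genes, those sharing exons with them on the other strand, the rows next to them in base mean and listed genes of the fixed lists. Lyz2, Nhp2, Malsu1, Xcr1, Med20, Gm39119, Gm17796 and genes named as examples of unlisted ones were named after the results were seen. Python 3.11.15 and matplotlib 3.10.9 were used.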

Additional observations from a re-analysis of the deposited data

How the results depend on the processing

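No paired analysis was possible because the table gives 1 value per gene over all libraries, and for the same reason leaving out a replicate, another normalization, a count filter and DESeq2 in place of edgeR were not run. Per kilobase, with 237 (Bysl), 103 (Bola2) and 57.5 (LTO1) normalized counts over all exons, exons not shared with the other strand gave 262, 113 and 68.1. Only the length changed there. Any counts from the shared bases stay in these values, because 1 value per gene cannot be split by position. The longest coding transcript gave 358 for Bola2 and 182 for LTO1 and left Bysl as it was, and coding length gave 699 for Bysl, 1752 for Bola2 and 438 for LTO1, all from the shorter lengths divided by. The bases shared with the other strand, 361 for Bysl, 1100 for LTO1 and 386 for Bola2, were 349 for Bola2 with protein-coding transcripts only. With gene bodies they were 1771 for LTO1 and 410 for Bola2. With RefSeq gene bodies, added after seeing the data, they were 359 for Bysl, 818 for LTO1 and 0 for Bola2. The 79 rows with an overlap became 34 of 99 when only protein-coding genes were taken on both strands, 97 with gene bodies and 75 with at least 50 bp. With only the 100 bases before the start, 1 motif was matched in Bola2 in place of 2, and 0 in Bysl in place of 1. Ranks by base mean and the count of 0 pathway genes were the same under the alternatives tried for them, and the 17 rows with a nearby start were 24 within 1000 bp, a window added later. Errors of the base means are unknown.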
